A study of Mus musculus with 6 samples.

Results

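The constitutive proteasome genes were followed in RNA sequencing counts from the cerebral cortex of FAD5x and Control mice. Members were protein-coding genes whose mouse symbol begins with Psma, Psmb, Psmc, Psmd, Psme, Psmf or Psmg and a number. The immunoproteasome genes Psmb8, Psmb9 and Psmb10 and the activator genes Psme1 and Psme2 were left out, as were 4 pseudogenes. This gave 46 members among 47728 genes in the table, namely 8 Psma, 8 Psmb, 6 Psmc, 14 Psmd, 3 activator or inhibitor and 4 assembly chaperone genes, and 3 genes that only share the name. The proteasome subunits other than Psma8 and Psmb11 each had at least 100 counts in every library.

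The proteasome is the protease complex that breaks down proteins tagged with ubiquitin. Its core particle is a barrel of stacked rings, in which alpha subunits (Psma) form the gate at both ends and beta subunits (Psmb) form the chamber that holds the proteolytic sites. A regulatory particle caps the barrel: an ATPase ring (Psmc) unfolds the substrate and feeds it through the gate, and non-ATPase subunits (Psmd) bind ubiquitin chains and remove them. In brain, loss of proteasome capacity is a subject of study in diseases with protein deposits, Alzheimer's disease among them.

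The FAD5x group held 3 libraries and the Control group, C57BL/6 mice, held 3. The FAD5x line is known as a model of Alzheimer's disease in which human transgenes with familial disease mutations are expressed in neurons from a Thy1 cassette. All libraries came from flash frozen cortex, and the age and number of animals are not given in the sources used here, so a p-value speaks to the spread of the libraries alone, and that spread may be technical. Total counts were 17363946 to 24137936 per library. Markers of excitatory cortical neurons were present in every library, at a summed level of 3324 to 6563 CPM, a gene's counts divided by the normalised size of the library. The 6 markers of striatal neurons summed to 1037 CPM in FAD5x replicate 1 against 92.6 to 203 CPM in the other 5 libraries. Summed microglial markers were 352 to 762 CPM in FAD5x and 242 to 365 CPM in Control, with 1 of 7 risen, and summed oligodendrocyte markers 3802 to 7393 and 2719 to 3978 CPM, with 1 of 6 risen. Markers of meninges and fibroblasts summed to 8.62 to 39.1 CPM in FAD5x and 77.7 to 283 CPM in Control, with 0 of 4 called by edgeR and 3 lower at an unadjusted p under 0.05. No gene of any marker list was at 0 in all libraries. Xist had 3 counts in Control replicate 1 and 10346 to 22631 elsewhere, and 4 Y-linked genes summed to 3124 counts there and to at most 9 elsewhere. The part of these differences in the results below was not tested. In bulk tissue, fewer cells of a type and less RNA per cell cannot be told apart. Values per library are given in the order of replicates 1, 2 and 3, and a positive log2 fold change means a higher level in FAD5x (± standard error, SE, n = 3 per group).

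In FAD5x cortex 1 of the 44 members tested rose, the ATPase gene Psmc5, at an edgeR adjusted p below 0.05. None fell: 0 were called lower by edgeR, DESeq2 or limma-voom, and 0 were lower with an unadjusted p below 0.05. Over all 17074 genes tested 1.76% were called higher and 1.39% lower (3.15% in either direction), so that the count of members is near the background. DESeq2 and limma-voom also called Psmc5 alone, with 3.79% and 1.45% of all genes higher. With an unadjusted p below 0.05, 9 members were higher and 0 lower, against 11.2% and 10.1% of all genes. At an adjusted p below 0.1, 4 members were higher, Psmc5, Psmb1, Psmd4 and Psmb6, against 3.99% of all genes. The FAD5x and Control libraries did not overlap for 14 members that were higher and 2 that were lower, against 14.1% and 13.2% of all genes. The log2 fold change was above 0 in 33 of 44 members, against 51.5% of all genes, and the median was 0.12 over the members and 0.02 over all genes. The members have short transcripts, with a median longest transcript of 1919 bases. Of other protein-coding genes, 70.7% were above 0 where that length was 1500 to 2000 bases. The share was 78.2% up to 1000 bases, 73.5% from 1000 to 1500 and 62.4% from 2000 to 3000. The members thus showed small differences, mostly above 0, as did most other protein-coding genes of those lengths. Their range from the lowest to the highest, -1.14 to 0.67, was set by genes with few counts. The single call ended without FAD5x replicate 1 (edgeR adjusted p = 0.0757), FAD5x replicate 3 (0.0571) or Control replicate 1, 2 or 3 (0.202, 0.169 and 0.103), and held without FAD5x replicate 2 (0.0413). Calls of all genes moved as well, with 0.575%, 3.41% and 1.62% called higher without FAD5x replicate 1, 2 or 3, and 0.238%, 0.221% and 0.406% without Control replicate 1, 2 or 3. With FAD5x replicates 1 and 2, which have related library names, summed into 1 sample, Psmc5 was still called (edgeR adjusted p = 0.0438), against 2.5% of all genes higher.

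**Figure D1:**
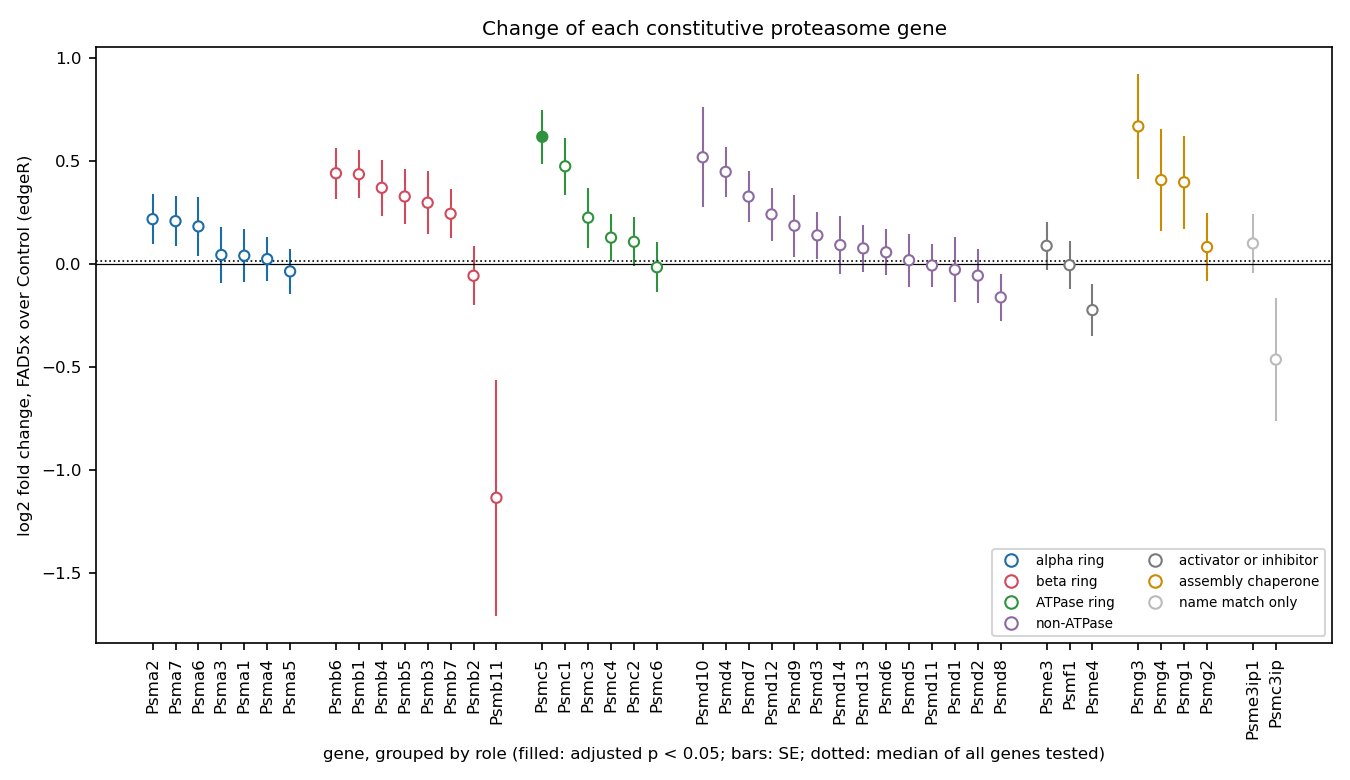
The log2 fold change of FAD5x over Control is plotted for each of the 44 members tested, grouped by role, with bars for the SE, filled points for an adjusted p below 0.05 and a dotted line at the median of all genes tested. Psmc5 is the single filled point, 6 of 8 beta ring genes lie above 0.2 and the 7 alpha ring genes lie between -0.04 and 0.22.

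The alpha subunits, which gate the core particle, had a median log2 fold change of 0.04. The median was 0.16 without FAD5x replicate 1, and 0.04 to 0.12 with any 1 of the other libraries left out. Of the 7 tested, 0 rose or fell (edgeR, with 0 at an unadjusted p under 0.05 and 0 by limma-voom and DESeq2), and FAD5x and Control overlapped for all 7. Psma2 had the highest fold change and the smallest p of the ring, with 48.1, 58.4 and 56.8 CPM in FAD5x libraries, compared with 45.2, 46.5 and 48.6 CPM in Control (log2 0.22 ± 0.12 SE, adjusted p = 0.343). Its lowest FAD5x library, replicate 1, lay within the Control range. Psma5 had the lowest fold change, with 39.6, 42.8 and 39.8 CPM in FAD5x libraries, compared with 41.7, 42.3 and 41.1 CPM in Control (log2 -0.04 ± 0.11 SE, adjusted p = 0.890). The groups of Psma5 differed by less than their spread. Psma7, which is common to all core particles of somatic cells, and Psma6 had log2 fold changes of 0.21 ± 0.12 and 0.18 ± 0.14, and Psma1, Psma3 and Psma4 had 0.04, 0.04 and 0.02. Psma8, the alpha subunit of the testis, had 13, 3 and 6 counts in FAD5x and 11, 3 and 3 in Control and was too low to be tested.

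The beta subunits, which line the proteolytic chamber, were higher in FAD5x than in Control for most members, but 0 of 8 passed the test over all genes (edgeR and DESeq2, and 0 by limma-voom). At an unadjusted p under 0.05, 4 were higher, and 5 had libraries that did not overlap, against 11.2% and 14.1% of all genes. Psmb1, a structural subunit without a proteolytic site of its own, stood at 84.0, 96.4 and 93.3 CPM in FAD5x libraries, compared with 63.7, 67.0 and 71.4 CPM in Control. All of its FAD5x libraries lay above all Control libraries, and its p was the smallest of the ring (1.35-fold, log2 0.44 ± 0.12 SE, adjusted p = 0.0863). Psmb4, another structural subunit, had 77.9, 102 and 97.4 CPM in FAD5x against 69.3, 70.1 and 74.7 CPM in Control (log2 0.37 ± 0.13 SE, adjusted p = 0.166). FAD5x replicate 1 was the lowest of the FAD5x libraries for both genes.

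The 3 proteolytic subunits had fold changes above 0, and 0 of 3 passed the test. Psmb6, which carries the caspase-like site and had the highest fold change of the ring, stood at 47.7, 52.0 and 58.0 CPM in FAD5x libraries, compared with 36.7, 41.7 and 37.7 CPM in Control (1.36-fold, log2 0.44 ± 0.12 SE, adjusted p = 0.0965). Psmb5, which carries the chymotrypsin-like site, stood at 44.3, 56.3 and 51.8 CPM against 36.9, 42.0 and 42.4 CPM (log2 0.33 ± 0.13 SE, adjusted p = 0.205). Psmb7, which carries the trypsin-like site, stood at 48.5, 55.2 and 47.4 CPM against 43.2, 39.6 and 44.8 CPM (log2 0.24 ± 0.12 SE, adjusted p = 0.285). For these genes every FAD5x library was above every Control library, and no difference passed the test. The ratio of the summed level of the 3 proteolytic subunits to that of the 4 other constitutive beta subunits was 0.612, 0.578 and 0.551 in FAD5x and 0.564, 0.582 and 0.562 in Control, with groups that overlapped. Psmb3 differed by 0.30 ± 0.15 on the log2 scale (adjusted p = 0.311) and Psmb2 by -0.06 ± 0.14 (adjusted p = 0.862). Psmb11, the proteolytic subunit of the thymus, had the lowest fold change of the ring, from 10, 14 and 6 counts in FAD5x and 32, 10 and 14 in Control (log2 -1.14 ± 0.57 SE, adjusted p = 0.299). Psmb7 overlaps Nek6 on the opposite strand over 405 exonic bases, and since the sources used here do not give strandedness, reads of the pair cannot be told apart there.

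Within the core particle the level of beta relative to alpha subunits was higher in each FAD5x library than in any Control library. This comparison was chosen after the values were seen. For the 7 constitutive beta subunits, Psmb1 to Psmb7, the median log2 level, set against the mean of the Control libraries, was 0.13, 0.43 and 0.45 in FAD5x, against -0.06, -0.01 and 0.07 in Control. For the 7 constitutive alpha subunits, Psma1 to Psma7, it was -0.07, 0.18 and 0.18 in FAD5x and -0.05, -0.01 and 0.06 in Control. The difference, beta minus alpha, was 0.20, 0.25 and 0.27 in FAD5x and -0.01, 0.00 and 0.02 in Control. The FAD5x libraries thus varied more in the level of each ring than in the difference between the rings. The ratio of summed levels, beta over alpha, was 1.01, 1.04 and 1.01 in FAD5x and 0.863, 0.886 and 0.865 in Control, or 1.02 ± 0.01 against 0.872 ± 0.013 (SD, n = 3). As a ratio within a library it does not depend on the scaling between libraries. By the longest transcript the rings were of like length, with a median of 1239 bases for alpha and 1183 for beta. Median GC content was 45.0% and 51.0%. The likeness depends on the length taken. Principal transcripts were shorter for Psmb3 (766 against 1509 bases), Psmb7 (1160 against 2849), Psmb6 (798 against 966) and Psmb1 (1758 against 1970). Among Psma1 to Psma7 this held for Psma7 alone (914 against 1515). With trends with longest transcript and GC content taken out of each library, the difference of the fitted medians fell from 0.28 to 0.18. Values per library were not computed with the trends taken out, so whether the groups then stay apart was not tested.

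**Figure D2:**
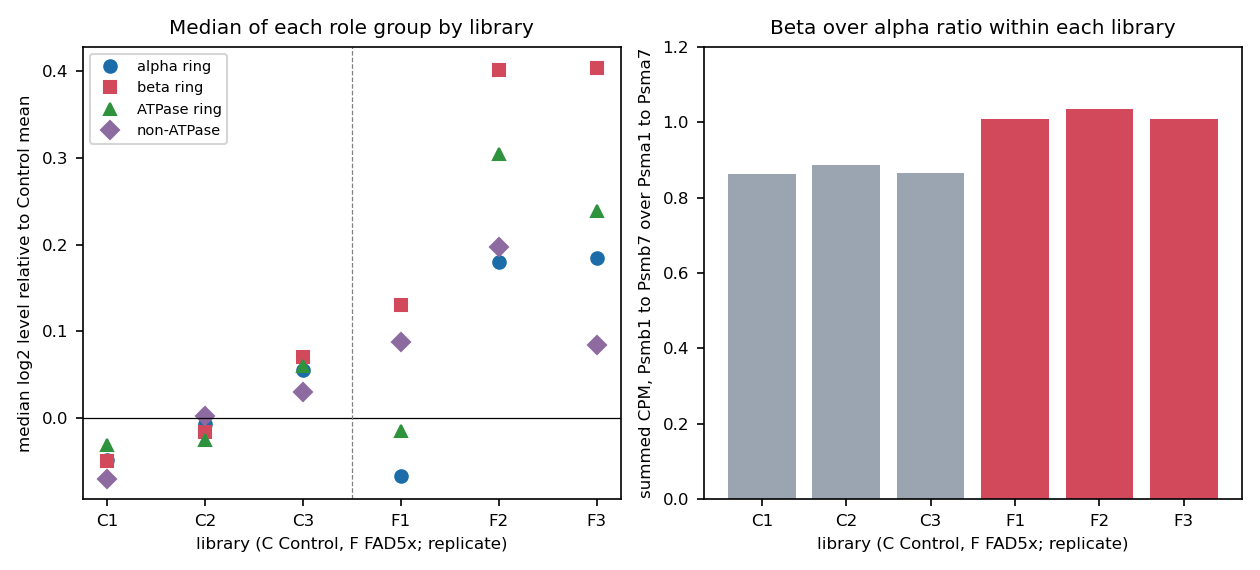
The left panel plots, for each library, the median log2 level of the alpha ring, beta ring, ATPase ring and non-ATPase genes relative to the Control mean, and the right panel plots the summed CPM of Psmb1 to Psmb7 over that of Psma1 to Psma7. The beta ring is the highest of the 4 groups in each FAD5x library, and the ratio is 1.01 to 1.04 in FAD5x and 0.863 to 0.886 in Control.

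The ATPase ring of the regulatory particle held the single member that rose. Psmc5 (ENSMUSG00000020708), one of the ATPases that unfold substrates, stood at 116, 141 and 123 CPM in FAD5x libraries, compared with 75.1, 82.3 and 89.6 CPM in Control. Each FAD5x library lay above each Control library, with a mean of 126 ± 13 against 82.4 ± 7.2 CPM (SD, n = 3), a 1.54-fold difference (log2 0.62 ± 0.13 SE, edgeR adjusted p = 0.0458). Psmc1, which forms a pair with Psmc2 during assembly, came next, with 92.5, 124 and 107 CPM in FAD5x libraries, compared with 73.9, 76.5 and 82.1 CPM in Control (log2 0.48 ± 0.14 SE, adjusted p = 0.103). Its groups did not overlap, and the difference did not pass the test. Psmc6 had the lowest fold change, with 55.2, 65.2 and 56.2 CPM in FAD5x libraries, compared with 62.2, 55.4 and 60.8 CPM in Control (log2 -0.02 ± 0.12 SE, adjusted p = 0.962). Psmc3, Psmc4 and Psmc2 had log2 fold changes of 0.23 ± 0.15, 0.13 ± 0.11 and 0.11 ± 0.12. ATPases that assemble as pairs therefore had unlike values: 0.62 for Psmc5 and 0.13 for Psmc4, and 0.48 for Psmc1 and 0.11 for Psmc2. Whether the members of a pair differ was not tested. Exons of Psmc3 overlap those of Slc39a13 on the opposite strand.

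**Figure D3:**
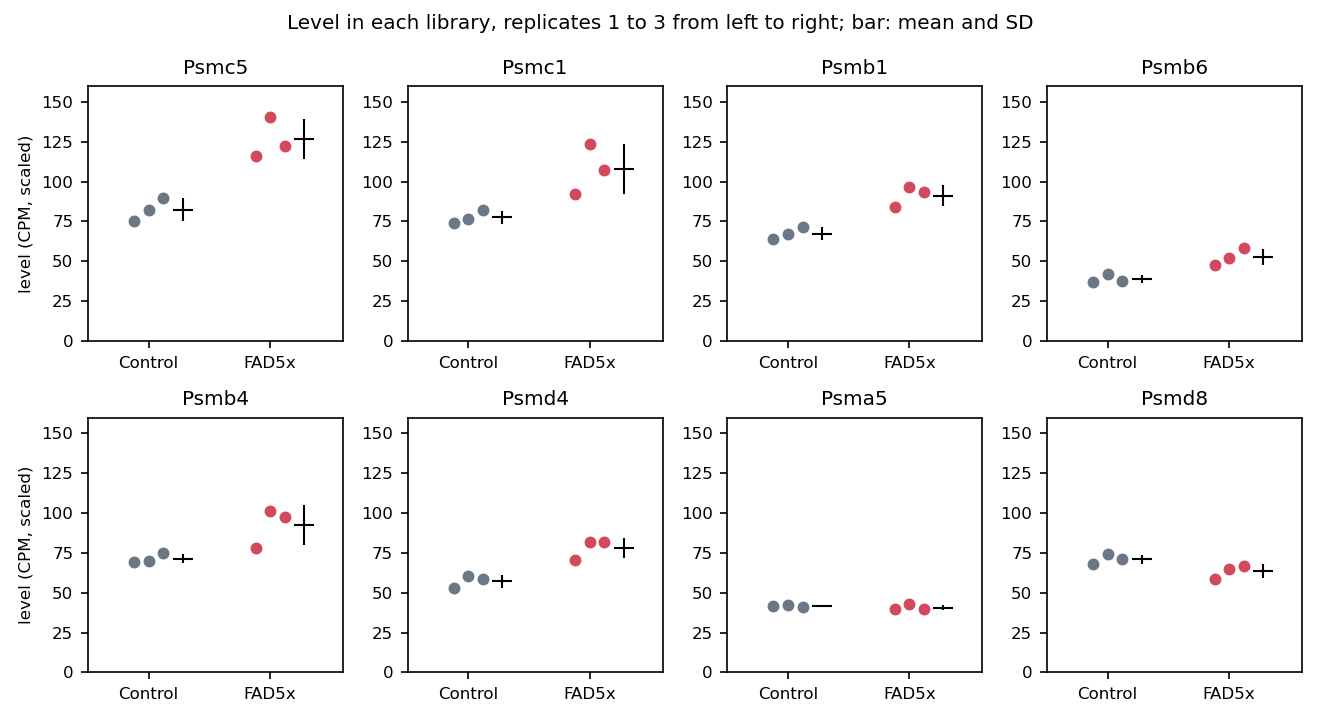
Scaled CPM are plotted for 8 members in Control and FAD5x, with a point for each library and a bar for the mean and SD of 3 libraries. The groups do not overlap for Psmc5, Psmc1, Psmb1, Psmb6, Psmb4 and Psmd4, overlap for Psma5, and stand apart with FAD5x lower for Psmd8.

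Among the non-ATPase subunits 0 of 14 passed the test (edgeR and DESeq2, and 0 by limma-voom), and 2 were higher at an unadjusted p under 0.05, near the 11.2% of all genes. Psmd4, a receptor for ubiquitin chains, had the smallest p, with 70.8, 82.1 and 81.7 CPM in FAD5x libraries, compared with 52.8, 60.6 and 58.5 CPM in Control (1.36-fold, log2 0.45 ± 0.12 SE, adjusted p = 0.0873). Psmd7, a lid subunit that pairs with the deubiquitinase Psmd14, had 58.7, 73.4 and 62.8 CPM in FAD5x libraries, compared with 52.6, 51.0 and 51.7 CPM in Control (log2 0.33 ± 0.12 SE, adjusted p = 0.175). In both genes the FAD5x libraries were all above the Control libraries. Psmd14 itself differed by 0.09 ± 0.14 on the log2 scale (adjusted p = 0.753). Psmd8, a lid subunit, had the lowest fold change and was the 1 subunit of the regulatory particle with all FAD5x libraries below all Control libraries, at 58.9, 65.1 and 66.8 against 68.3, 74.1 and 71.0 CPM (log2 -0.16 ± 0.11 SE, adjusted p = 0.458). The scaffold subunits Psmd1 and Psmd2, which hold the base together, had log2 fold changes of -0.03 ± 0.16 and -0.06 ± 0.13. The 8 lid genes had a median of 0.08, with 6 above 0. Exons of Psmd13 overlap those of Sirt3 on the opposite strand.

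Psmd5, Psmd9 and Psmd10 are chaperones that assemble the base and leave before the proteasome is complete. Psmd10, also known as gankyrin, had the highest fold change among Psmd genes, with 8.12, 13.6 and 8.78 CPM in FAD5x libraries, compared with 7.27, 6.12 and 7.88 CPM in Control (log2 0.52 ± 0.24 SE, adjusted p = 0.265). FAD5x replicate 2 was far above the other FAD5x libraries, the groups did not overlap, and the difference did not pass the test. Psmd9 and Psmd5 had log2 fold changes of 0.19 ± 0.15 and 0.02 ± 0.13.

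Core and regulatory subunits were not separated by their change. The median log2 fold change was 0.21 over 15 core genes, with 12 above 0, and 0.12 over 20 regulatory genes, with 15 above 0. By library, set against the mean of the Control libraries, the core median stood at -0.01, 0.24 and 0.28 in FAD5x and -0.05, -0.01 and 0.06 in Control. For regulatory genes it was 0.04, 0.23 and 0.15 in FAD5x and -0.06, -0.02 and 0.03 in Control. Their difference, core minus regulatory, was -0.05, 0.02 and 0.135 in FAD5x and 0.01, 0.01 and 0.02 in Control, so that the FAD5x libraries lay on both sides of the Control range. The ratio of summed levels, core over regulatory, was 0.548, 0.553 and 0.615 in FAD5x and 0.559, 0.548 and 0.551 in Control, and only FAD5x replicate 3 stood apart. Without FAD5x replicate 3 the difference of the fitted medians was 0.02 in place of 0.09. FAD5x replicate 1, the library with the highest striatal markers, was the lowest FAD5x library for both medians.

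Alternative caps and the inhibitor were near their Control level, and 0 of 3 passed the test (edgeR, with 0 at an unadjusted p under 0.05, and 0 by DESeq2 and limma-voom). Psme3, the nuclear activator subunit also called PA28 gamma, had the highest fold change, with 87.6, 103 and 93.4 CPM in FAD5x libraries, compared with 88.6, 87.0 and 91.1 CPM in Control (log2 0.09 ± 0.12 SE, adjusted p = 0.708). Psme4, the large activator also called PA200, had 64.2, 68.2 and 80.4 CPM in FAD5x libraries, compared with 86.8, 82.2 and 79.4 CPM in Control (log2 -0.22 ± 0.13 SE, adjusted p = 0.358). Its FAD5x replicate 3 lay within the Control range. Psmf1, also called PI31, had 31.1, 32.9 and 33.0 CPM against 30.0, 34.4 and 32.9 CPM.

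The chaperones Psmg1 to Psmg4, which build the alpha ring, had fold changes above 0 with few counts. Psmg3 had the highest, with 4.33, 5.86 and 5.96 CPM in FAD5x libraries, compared with 3.74, 3.60 and 2.80 CPM in Control (log2 0.67 ± 0.25 SE, adjusted p = 0.181), from 50 to 121 counts per library. Psmg2, which pairs with Psmg1, had the lowest, with 258, 255 and 270 counts in FAD5x and 200, 216 and 212 in Control, before scaling (log2 0.08 ± 0.17 SE, adjusted p = 0.820). Psmg1 and Psmg4 had log2 fold changes of 0.40 ± 0.23 and 0.41 ± 0.25. The libraries did not overlap for 3 of these 4 genes, against 14.1% of all genes apart and higher. Of the 4, 0 passed the test (edgeR, with 1 higher at an unadjusted p under 0.05, against 11.2% of all genes, and 0 by DESeq2 and limma-voom).

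The symbols of 3 members match by name while the genes code for no subunit of the constitutive proteasome. Psmc3ip, a recombination protein of meiosis, stood at -0.46 ± 0.30 on the log2 scale (adjusted p = 0.424), from 38 to 53 counts per library, and Psme3ip1, a partner of Psme3, of 0.10 ± 0.15 (adjusted p = 0.737). Psme2b, with 4, 3 and 3 counts in FAD5x and 5, 5 and 7 in Control, was too low to be tested and is 99.4% identical in sequence to Psme2, so its counts are uncertain. The processed copies of other members had at most 53 counts in a library.

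Genes that work with the proteasome were taken from a list of 33 partners, of which 32 were measured. Of these 0 rose or fell by edgeR or limma-voom, with 5 higher and 2 lower at an unadjusted p under 0.05, against 11.2% and 10.1% of all genes. DESeq2 called 2 higher, Rps27a among them, against 3.79% of all genes. Their median log2 fold change was 0.11, with 20 of 32 above 0, against 0.02 and 51.5% over all genes. Rps27a, which codes for ubiquitin fused to a ribosomal protein, had the smallest p (log2 0.67 ± 0.16 SE, edgeR adjusted p = 0.0644). It stood at 152, 148 and 188 CPM in FAD5x libraries, compared with 90.6, 121 and 94.0 CPM in Control. Ribosomal protein genes have many processed copies, so that its counts are uncertain. Pomp, the chaperone that matures the core particle, stood at 61.6, 70.4 and 71.4 CPM in FAD5x libraries, compared with 51.1, 51.0 and 54.3 CPM in Control (log2 0.38 ± 0.11 SE, adjusted p = 0.113), with groups that did not overlap. Nfe2l1, the transcription factor known to drive proteasome genes when proteasome activity is low, differed by 0.37 ± 0.17 on the log2 scale (adjusted p = 0.253). The 2 partners lower at an unadjusted p under 0.05 were Ecpas and Ube3c. Their log2 fold changes were -0.28 ± 0.12 and -0.36 ± 0.14 (edgeR adjusted p = 0.230 and 0.186). Nfe2l1, Ecpas and Ube3c were named after their values were seen.

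Of the 5 genes left out as immunoproteasome or its activator, Psmb8, the inducible counterpart of Psmb5, rose from 1.93, 1.18 and 1.23 CPM in Control to 5.44, 2.86 and 6.01 CPM in FAD5x (3.29-fold, edgeR adjusted p = 0.0494). Its level was low and its adjusted p lay just under the threshold. Whether this call holds under the other settings or with libraries left out was not tested. Psmb9, Psmb10, Psme1 and Psme2 had log2 fold changes of 0.71, 0.45, 0.29 and 0.43 and did not pass the test. Over all genes tested 1.76% were called higher.

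Levels of different members can be compared per length only, here as scaled CPM per kilobase of the union of a gene's exons. In Control the 14 constitutive core subunits spanned 3.62-fold, from 12.4 ± 0.8 for Psmb7 to 45.0 ± 3.4 for Psmb5 (SD, n = 3). Among the ATPases the level ran from 13.1 ± 0.3 for Psmc2 to 59.1 ± 5.2 for Psmc5, the highest of all members by this length. Among the Psmd genes Psmd2 was highest at 45.0 ± 1.4 and Psmd9 lowest at 2.73 ± 0.24. Psmg1 to Psmg4 lay at 1.17 to 6.86, below every constitutive core subunit. The order within the core depends on the length taken for a gene: per kilobase of the principal transcript, chosen with the values known, Psma7 was highest at 66.2 ± 2.6 and Psma2 lowest at 16.1 ± 0.6, and Psmb7, at 36.7 ± 2.3, lay above Psma5, at 33.7 ± 0.5. Psma8 and Psmb11, the subunits of testis and thymus, lay at 0.126 ± 0.101 and 0.216 ± 0.133 per kilobase of exons.

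The change of all genes went with transcript length, and the members' changes are given beside it. Protein-coding genes other than the members had a median log2 fold change of 0.30 where the longest transcript was up to 1000 bases (533 genes), 0.22 from 1000 to 1500, 0.18 from 1500 to 2000, 0.10 from 2000 to 3000, -0.02 from 3000 to 5000 and -0.18 above 5000 bases (3443 genes). Most members have short transcripts, with a median of 1919 bases against 3184 for all genes tested. Against the median of their class by longest transcript, 6 of 8 beta ring genes, 4 of 6 ATPases, 7 of 14 non-ATPase genes and 2 of 7 alpha ring genes were higher. These counts may change with the length taken. By the principal transcript Psmb3 (0.298) and Psma7 (0.209) would fall in the shortest class, where the median by longest transcript was 0.302. Psmc2 (0.109) would then fall in the class from 1500 to 2000 bases, where that median was 0.176. Medians of other genes placed by principal transcript were not computed, so the counts by that length are not known. With length and GC trends taken out the core median was 0.05 and the regulatory median 0.03, and 0 members were called by edgeR, against 1.21% of all genes called higher. Above 0 were then 9 of 15 core and 12 of 20 regulatory genes, in place of 12 and 15. At an unadjusted p under 0.05, 5 of 44 members were then higher, near the 9.52% of all genes. Psmc5 then had a log2 fold change of 0.43 ± 0.12 (edgeR adjusted p = 0.119).

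**Figure D4:**
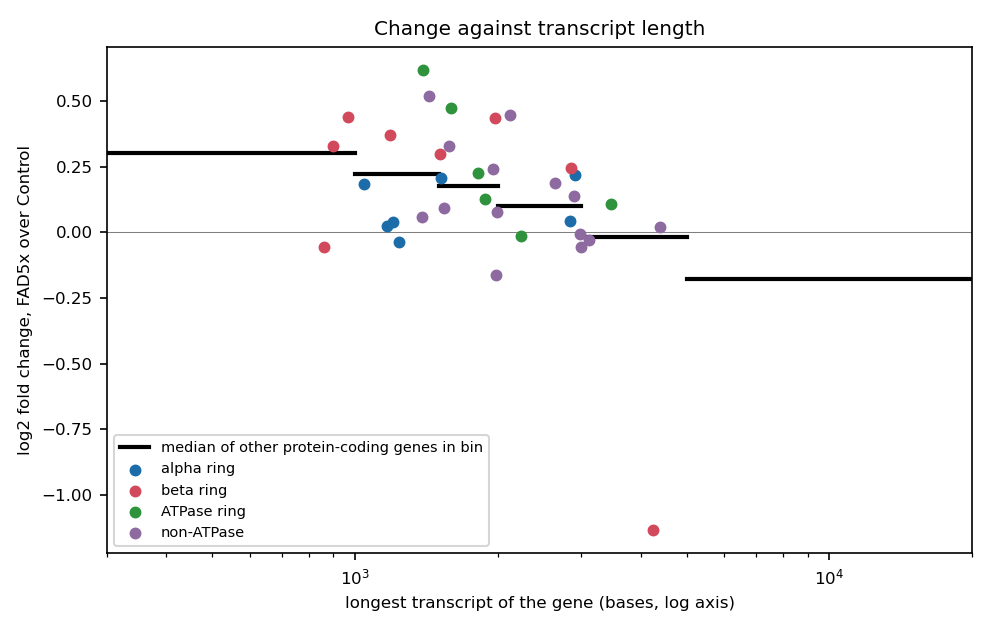
The log2 fold change of the core and regulatory genes is plotted against the length of the longest transcript on a log axis, and black lines give the median of other protein-coding genes in each length class, with the first and last classes open-ended. The lines fall from 0.30 to -0.18, and the alpha ring genes lie mostly below the line of their class.

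The promoters of members that stood highest were read from a RefSeq table of the build GRCm38.p6, which holds windows from 250 bases before to 50 after a gene's start. Of the 46 members 38 had an entry. Shown are Psmc5, Psmc1, Psmd4 and Psmb6, the 4 members with the smallest p among those with an entry, each as the 250 bases before the start, 5′ to 3′. Capitals mark CCGGAA, the core letters bound by ETS factors, and TGACNNNGC, the core of the antioxidant response element that NFE2L1 and NFE2L2 bind, on either strand, so that CCGGAA read from the other strand appears as TTCCGG.
Psmc5, chr11:106255935-106256184, plus strand: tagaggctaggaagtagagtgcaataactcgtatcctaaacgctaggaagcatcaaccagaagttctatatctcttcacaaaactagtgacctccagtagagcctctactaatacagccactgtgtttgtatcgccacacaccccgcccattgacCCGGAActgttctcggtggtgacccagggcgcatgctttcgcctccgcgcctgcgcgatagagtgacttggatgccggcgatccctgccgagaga
Psmc1, chr12:100109952-100110201, plus strand: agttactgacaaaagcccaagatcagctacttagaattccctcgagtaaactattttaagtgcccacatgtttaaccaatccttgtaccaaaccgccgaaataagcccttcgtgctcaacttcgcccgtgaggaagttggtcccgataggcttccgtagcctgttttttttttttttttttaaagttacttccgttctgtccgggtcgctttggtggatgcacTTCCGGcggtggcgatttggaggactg
Psmd4, chr3:95042615-95042864, minus strand: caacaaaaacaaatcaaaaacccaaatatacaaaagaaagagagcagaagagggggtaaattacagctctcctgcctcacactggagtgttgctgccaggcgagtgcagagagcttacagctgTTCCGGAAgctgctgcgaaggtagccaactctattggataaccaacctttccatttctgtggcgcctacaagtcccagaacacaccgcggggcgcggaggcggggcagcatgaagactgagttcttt
Psmb6, chr11:70525107-70525356, plus strand: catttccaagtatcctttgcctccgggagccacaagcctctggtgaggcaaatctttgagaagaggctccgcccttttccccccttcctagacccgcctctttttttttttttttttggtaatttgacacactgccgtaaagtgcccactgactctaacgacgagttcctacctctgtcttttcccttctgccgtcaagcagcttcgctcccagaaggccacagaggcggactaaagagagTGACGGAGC
CCGGAA is present in the first 3 of these windows and TGACNNNGC in that of Psmb6.

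Over the whole windows of 300 bases, on both strands, CCGGAA was found in 20 of 38 members (52.6%), against 15.2% of all 27025 promoters in the table and 19.1% of those of protein-coding genes. It was in 11 of 17 regulatory and 3 of 12 core members. TGACNNNGC was found in 6 of 38 members (15.8%), against 12.5% of all promoters and 13.2% of protein-coding ones. Among the 12 core members with an entry it was in Psmb5 and Psmb6 only. The core genes Psma8, Psmb1, Psmb2 and Psmb7 had no entry and were not searched. CCAAT, the box bound by NF-Y, was found in 14 of 38 members (36.8%), against 37.9% of all promoters and 39% of protein-coding ones, with 5 of 7 alpha ring members. GGGCGG, the GC box, was found in 52.6% of members, close to the 46.3% of protein-coding promoters (35.9% of all promoters). TATAAA was found in 7.89% of members, against 13.3% of protein-coding and 14.2% of all promoters. Hits of different motifs overlapped in 2 cases among the members. These matches describe letters in the windows and do not show binding.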

How the data were processed

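The authors deposited raw counts per gene for 6 libraries. The submitters' processing notes name featureCounts, STAR 2.7.11b, cutadapt, limma and edgeR 3.38.4, and the build GRCm39, without order or parameters. Strandedness and the treatment of multi-mapping reads are not given in the sources used here. One line without a number was left out. Symbols, types, lengths and GC content came from GENCODE M21, an earlier build, with 47223 of 47728 identifiers matched. Genes were filtered with filterByExpr, scaled by the trimmed mean of M values and tested with edgeR 4.0.16 in R 4.3.3 (quasi-likelihood F-test, robust, two-sided, Benjamini-Hochberg over 17074 genes, threshold 0.05). SE is the fold change over the root of F. Library medians use log2 CPM with a prior count of 2. Copies were transcripts of genes or pseudogenes with 95% identity over 50% of the shorter length. The tests of single genes by edgeR, limma-voom and DESeq2 were run on simulated counts, with an outcome not reported here. Those counts held no trend with length or GC content and no difference in cell composition. The medians, ratios, trend removal and promoter steps were not simulated. FAD5x replicates 1 and 2 differed beyond sampling noise (chi-square over its degrees of freedom 63.8), and were counted as 2 samples. Whether they share an animal is not known, so they were also summed as an alternative. Alternatives were limma-voom 3.58.1, DESeq2 1.42.0, other scalings, filters and gene classes, trends with length and GC (lowess, span 0.3) and libraries left out. Members and lists were chosen with earlier results of these data known. The rule for named members took those called, the highest, lowest and smallest p in each role group, and Psmb5, Psmb6 and Psmb7; others are named for completeness, and for partners the 3 with the smallest p, of which 1 is not reported here. One partner, Paaf1, was not analysed here.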

Additional observations from a re-analysis of the deposited data

How the results depend on the processing

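The count of members called was 1 in the main analysis and under limma-voom, DESeq2, each scaling, no filter on low counts, protein-coding genes only, ribosomal and mitochondrial genes left out, copies summed and FAD5x replicates 1 and 2 summed. It was 0 with length and GC trends taken out, 0 with the replicate block, 0 without FAD5x replicate 1 and Control replicate 1 together (added after the data were seen), 0 to 1 with each library left out, and 4 at a threshold of 0.1, against 3.99% of all genes called higher there. With length and GC trends taken out the core median was 0.052, the regulatory median 0.029 and the beta minus alpha difference over all tested ring genes 0.17, against 0.27 in the main analysis. With each library left out the core median was 0.14 to 0.29, the regulatory median 0.07 to 0.19, core minus regulatory 0.016 to 0.11 and beta minus alpha 0.21 to 0.29; without both replicates named above core minus regulatory was 0.12 and beta minus alpha 0.29. Partner genes called were 2 with DESeq2, 1 with no filter and 0 to 1 with each library left out (Rps27a without FAD5x replicate 2). All genes called were 537, and 1405 with DESeq2, 1063 with no filter, 72 with the replicate block and 81 to 989 with single libraries left out. The range of levels per length in the core was 4.04-fold by the longest and 4.12-fold by the principal transcript. Among settings where a single gene passed in neither analysis, 76 of 1442 turned its sign, in 26 genes. Same-numbered deviations correlated at -0.04, -0.09 and -0.30, and not every library correlated best with its own number. With 3 libraries per group, such weak correlations cannot exclude that libraries of the same number were handled together. Whether the replicate numbers pair the libraries is therefore unknown. Under the replicate block Psmc5 had an adjusted p of 0.145 by edgeR. The causes were not tested. Members with under 150 counts, such as Psmg3 and Psmb11, are limited by depth.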
